A study of Homo sapiens with 12 samples.

Results

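The 9 genes described here encode cytokines of the IL-1 family (IL1A, IL1B, IL1RN, IL18, IL33 and IL36G) and of the IL6 family (IL6, LIF and IL11). They were taken by name from the count tables, where they are 9 of 33514 gene symbols, and 8 of them passed the filter on low counts that left 17897 genes to test. IL33 did not pass. The measurements come from single-cell RNA sequencing (scRNA-seq) of SCC1, SCC6 and SCC25, 3 established lines grown from head and neck squamous cell carcinomas (HNSCC). Cetuximab, a therapeutic antibody against the epidermal growth factor receptor (EGFR), was given at 100 nM each day for 5 days, and the untreated controls received phosphate-buffered saline (PBS) over the same days. All cells of all groups grew in the same serum-containing medium. Each of the 6 groups (SCC1 PBS, SCC1 cetuximab, SCC6 PBS, SCC6 cetuximab, SCC25 PBS and SCC25 cetuximab) had 2 replicates, which made 12 samples. A cell line stands for 1 tumour and is grown without the immune and stromal cells that surround it there. Whether the replicates of a group are separate cultures is not stated, and every SD, SE and adjusted p-value then measures only the spread between these samples, which may be technical.

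Cytokines of the IL-1 family are alarm signals of epithelia and innate immune cells. IL-1α (IL1A) and IL-1β (IL1B) bind the receptor IL1R1, which recruits IL1RAP and signals through MYD88 to NF-kB, while the IL-1 receptor antagonist (IL1RN) occupies the same receptor without a signal. IL-18 (IL18) and IL-1β are made as precursors that inflammasome caspases cut, IL-33 (IL33) is a nuclear alarmin, and IL-36γ (IL36G) is an agonist that keratinocytes make in inflamed skin. IL-6, leukaemia inhibitory factor (LIF) and IL-11 share the receptor subunit gp130, encoded by IL6ST, and signal through Janus kinases to STAT3. Squamous carcinomas are known to secrete several of these cytokines.

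Of the 6 IL-1 family genes, 4 lie together on chromosome 2 of the human genome (build GRCh38.p14), namely IL1A at chr2:112773925-112784493, IL1B at chr2:112829751-112836779, IL36G at chr2:112978006-112985658 and IL1RN at chr2:113099360-113134014. IL18 lies at chr11:112143260-112164094, IL33 at chr9:6215149-6257983, IL6 at chr7:22727200-22731998, LIF at chr22:30240453-30246759 and IL11 at chr19:55364382-55370463. RefSeq promoter windows of 300 bases, of which 250 precede the start, were matched by symbol for 7 of the 9 genes, in 11 windows. IL18 and LIF were not matched. The 250 bases before the first listed start are shown for the 3 IL-1 genes whose balance of agonist and antagonist is described below and for IL6, so that the letters behind each motif count can be read. Capitals mark matches to the motifs searched, on both strands, for AP-1 (TGANTCA), NF-kB (by its consensus), C/EBP (TTNNGNAA), STAT (TTCNNNGAA) and the TATA box (TATAAA).
IL1A, chr2:112784494-112784743, minus strand: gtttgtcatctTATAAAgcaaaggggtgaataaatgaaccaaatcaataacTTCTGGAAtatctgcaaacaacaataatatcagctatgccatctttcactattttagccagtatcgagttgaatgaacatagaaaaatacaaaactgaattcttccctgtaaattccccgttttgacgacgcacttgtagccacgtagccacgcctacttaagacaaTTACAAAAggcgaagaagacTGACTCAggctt
IL1B, chr2:112836780-112837029, minus strand: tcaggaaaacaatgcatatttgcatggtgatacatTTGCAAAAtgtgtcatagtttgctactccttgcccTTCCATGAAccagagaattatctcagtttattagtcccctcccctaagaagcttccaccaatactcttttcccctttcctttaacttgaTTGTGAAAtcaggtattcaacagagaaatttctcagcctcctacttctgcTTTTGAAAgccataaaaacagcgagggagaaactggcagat
IL1RN, chr2:113117721-113117970, plus strand: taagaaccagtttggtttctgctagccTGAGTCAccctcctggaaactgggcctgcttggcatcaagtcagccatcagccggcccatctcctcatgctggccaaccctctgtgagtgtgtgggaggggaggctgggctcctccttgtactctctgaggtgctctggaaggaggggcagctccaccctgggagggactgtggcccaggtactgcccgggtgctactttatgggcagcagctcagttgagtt
IL6, chr7:22726950-22727199, plus strand: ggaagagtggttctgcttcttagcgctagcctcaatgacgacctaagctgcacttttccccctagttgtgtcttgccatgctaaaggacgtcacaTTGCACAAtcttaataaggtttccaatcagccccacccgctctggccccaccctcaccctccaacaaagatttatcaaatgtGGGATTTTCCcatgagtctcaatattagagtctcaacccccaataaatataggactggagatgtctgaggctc

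IL6 held the only NF-kB match of the 11 windows, GGGATTTTCC at position -73 from the start, where 5.91% of all 35116 promoter windows hold one. An AP-1 match lay at position -12 of IL1A, at -223 of IL1RN and at -96 of IL11, and 7.71% of all windows hold one. C/EBP matches were found in 36.8% of all windows, among them the printed windows of IL1A, IL1B (3 matches) and IL6. A STAT match, present in 7.66% of all windows, stood at position -180 of IL1B and at position 15 of the second window of IL33. TATA box matches, present in 11.5%, stood at -239 of the first window of IL1A and at -32 and -30 of the third window of IL1RN. A match describes letters in a window, not binding.

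The tables held 23914 cells, 961 to 2854 in each sample, with 57057402 to 112170073 unique molecular identifiers (UMIs, 1 for each captured mRNA molecule) per sample. Median depth was 24078.5 to 54864 UMIs per cell by sample, and SCC6 cetuximab replicate 1 was the shallowest. Levels are given as CPM, the UMIs of a gene per 1000000 UMIs of its sample. Of 8 squamous epithelial markers fixed for the check, all were present at 12.5 CPM or more in each SCC1 and SCC25 sample. SCC6 held KRT17 at 440 to 2449 CPM and the desmosomal gene DSP at 93.6 to 295 CPM, whereas the basal keratins KRT5 and KRT14 stayed at or below 4.57 and 2.58 CPM and PKP1 at or below 0.184 CPM, so that these defining markers were nearly absent there. The leukocyte genes PTPRC, CD3E and TYROBP, which mark cells that also make these cytokines, reached at most 0.0669, 0.0132 and 0.0111 CPM in any sample. Of the other leukocyte markers, the monocyte gene CD14 was at 9.15 to 14.03 CPM in SCC1, 1.39 to 4.81 in SCC25 and at most 0.111 in SCC6, and CD79A, CSF1R and AIF1 reached at most 2.25, 0.756 and 0.0634 CPM. The summed level of the 8 leukocyte markers ranged from 5.20 to 27.8 CPM in SCC6, from 17.2 to 31.9 in SCC1 and from 120 to 194 in SCC25, where CD68, a lysosomal gene not limited to leukocytes, alone gave 116 to 188 CPM.

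Without cetuximab, after the same 5 days with PBS, the 3 lines carried these cytokines at different levels. SCC1 had the highest IL1A, IL1B, IL18 and IL6, SCC6 the highest LIF and IL11, and SCC25 the highest IL1RN (plot of levels in the 12 samples). Not all of these rankings passed the test, as given for each gene below. Among untreated samples, edgeR's quasi-likelihood test called 3 of the 8 tested cytokines between SCC6 and SCC1, where 40.2% of all genes were called (53.8% with the replicate number as a block and 43.1% in DESeq2), 5 between SCC25 and SCC1 (40.8% of all genes, 54.7% with the block) and 6 between SCC25 and SCC6 (40.9%). These counts stand beside very common differences between lines. How many of all genes separated the untreated lines without overlap, as described below for some members, was not counted.

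**Figure D1:**
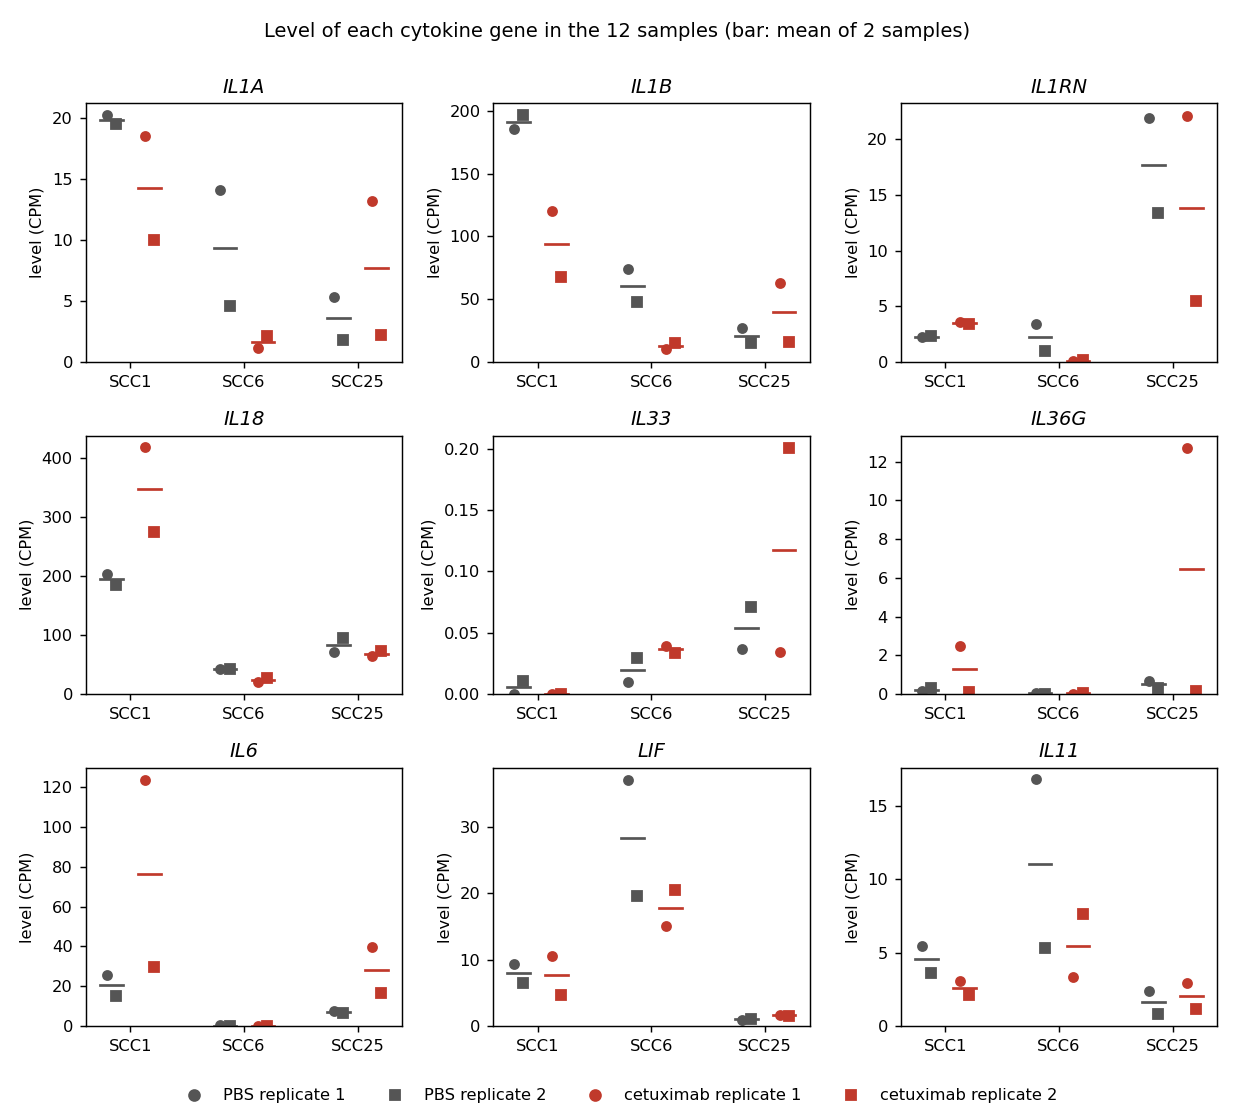
Level of each cytokine gene in CPM (vertical axes, linear from 0) in the 12 samples, by line, with PBS in grey and cetuximab in red, circles for replicate 1, squares for replicate 2 and bars for the mean of 2 samples. IL1B, IL1A and IL1RN of SCC6 sit lower in both cetuximab samples, IL6 sits higher in SCC1 and SCC25, and the high IL36G value of SCC25 belongs to 1 sample.

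IL1B, the secreted agonist, stood at 185 and 197 CPM in the SCC1 PBS samples, at 73.8 and 47.7 in SCC6 and at 26.7 and 15.4 in SCC25. No sample of one line overlapped with another line, in the order SCC1, then SCC6, then SCC25. The level in SCC25 was 8.04-fold below SCC1 (log2 fold change -3.01 ± 0.59 SE, edgeR adjusted p = 0.0025) and 3.25-fold below SCC6 (-1.70 ± 0.56, edgeR adjusted p = 0.0328). The second call ended without SCC6 PBS replicate 1 (0.170), SCC25 PBS replicate 1 (0.0550) or SCC25 PBS replicate 2 (0.161). SCC6 and SCC1 were neighbours with an adjusted p of 0.0832 in edgeR, which became 0.0255 with the replicate number as a block, over alternatives that ranged from 0.0118 to 0.314.

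IL1A, the agonist that cells hold as an alarmin, was at 20.3 and 19.5 CPM in SCC1, at 14.1 and 4.56 in SCC6 and at 5.35 and 1.83 in SCC25. SCC25 lay below SCC1 by 4.95-fold (log2 fold change -2.31 ± 0.82, edgeR adjusted p = 0.0455), and the SCC6 samples did not differ from either neighbour beyond their spread (edgeR adjusted p = 0.495 and 0.144). The call between SCC25 and SCC1 ended without SCC25 PBS replicate 2 (0.205), without any 1 of the 4 SCC1 samples (0.0538 to 0.111) or without either SCC6 cetuximab replicate (0.0532).

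The antagonist gene ran the other way. IL1RN stood at 21.9 and 13.4 CPM in untreated SCC25, at 2.21 and 2.30 in SCC1 and at 3.45 and 0.973 in SCC6. Both SCC25 samples were above all other untreated samples, by 8.84-fold against SCC1 (log2 fold change 3.14 ± 0.68, edgeR adjusted p = 0.00465) and by 7.04-fold against SCC6 (2.81 ± 0.67, edgeR adjusted p = 0.00757). SCC1 and SCC6 overlapped. Counted as molecules, SCC25 held 68.4 and 77.7 IL1RN UMIs for each 100 UMIs of IL1A and IL1B together, against 1.07 and 1.06 in SCC1 and 3.92 and 1.86 in SCC6.

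IL18 was at 203 and 185 CPM in untreated SCC1, at 70.6 and 95.1 in SCC25 and at 43.3 and 42.4 in SCC6, with no overlap between lines. All 3 differences passed the edgeR test, with SCC6 3.59-fold below SCC1 (adjusted p = 0.000411), SCC25 2.04-fold below SCC1 (adjusted p = 0.0103) and SCC25 1.76-fold above SCC6 (adjusted p = 0.029). Between SCC25 and SCC1 the call ended without SCC25 PBS replicate 1 (0.0786), and between SCC25 and SCC6 without SCC6 PBS replicate 1 (0.0861), SCC6 PBS replicate 2 (0.1196) or SCC25 PBS replicate 2 (0.204).

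Among the gp130 cytokines, IL6 was at 25.9 and 15.05 CPM in SCC1, at 7.71 and 6.59 in SCC25 and at 0.438 and 0.185 in SCC6. The SCC6 level was 50.9-fold below SCC1 (log2 fold change -5.67 ± 0.77, edgeR adjusted p = 0.00028), and SCC25 lay 20.5-fold above SCC6 (edgeR adjusted p = 0.00113). SCC25 and SCC1 had an edgeR adjusted p of 0.116, and 0.0228 with the replicate block, within a range of 0.0191 to 0.365 over the alternatives.

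LIF was highest in the line with least IL6. Its level was 37.2 and 19.7 CPM in SCC6, 9.44 and 6.47 in SCC1 and 0.988 and 1.11 in SCC25, without overlap. SCC6 was 4.59-fold above SCC1 (edgeR adjusted p = 0.00202), SCC25 was 6.55-fold below SCC1 (edgeR adjusted p = 0.000814), and between SCC25 and SCC6 the level differed 30.1-fold (log2 fold change -4.91 ± 0.47, edgeR adjusted p = 3.43e-05).

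IL11, a gp130 cytokine studied for its part in fibrosis, followed LIF in part, with 16.8 and 5.32 CPM in SCC6, 5.47 and 3.60 in SCC1 and 2.42 and 0.802 in SCC25. SCC6 was 7.89-fold above SCC25 (log2 fold change of SCC25 against SCC6 -2.98 ± 0.71, edgeR adjusted p = 0.00762). Without SCC6 PBS replicate 1 the log2 fold change was -1.86 (adjusted p = 0.0730), and without SCC25 PBS replicate 2 it was -2.42 (0.0533). Its difference between SCC6 and SCC1 had an edgeR adjusted p of 0.0743, and of 0.039 with the replicate block, over alternatives from 0.00622 to 0.605.

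IL36G and IL33 were near the floor in untreated cells. IL36G had 0.160 and 0.305 CPM in SCC1, 0.680 and 0.312 in SCC25 and 0.0797 and 0.00973 in SCC6, and none of its line differences passed the test (edgeR adjusted p from 0.207 to 0.586). IL33 gave 46 UMIs in the whole series and none in 3 of the 4 SCC1 samples.

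To ask whether EGFR blockade changes these genes, cetuximab and PBS samples were compared within each line. SCC6 was the line with calls. There the antagonist IL1RN and the agonist IL1B fell, IL1A and IL18 were lower in both cetuximab samples, and the gp130 cytokines did not pass the test. Of the 8 tested genes, 2 were called lower, where 1.3% of all genes were called lower and 3.81% were called in either direction. Both cetuximab samples lay below both PBS samples for 4 of the 8 genes, a pattern that 11.6% of all genes showed, and for none did both lie above, which 37.4% of all genes did.

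IL1RN in SCC6 fell from 3.45 and 0.973 CPM with PBS to 0.105 and 0.144 CPM with cetuximab. In molecules, these were 346 and 100 UMIs against 8 and 13. All cetuximab values were low and the PBS values themselves were far apart. The fold change was 20.7 (log2 fold change -4.37 ± 0.82, edgeR adjusted p = 0.0211), and the ratio within equal replicate numbers was 32.8 and 6.73.

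IL1B fell in SCC6 from 73.8 and 47.7 CPM to 9.95 and 14.9 CPM, by 5.77-fold (log2 fold change -2.53 ± 0.57, edgeR adjusted p = 0.0406). The groups did not overlap, and the lower PBS value was 3.20 times the higher cetuximab value. With IL1B, IL1RN lost its call when SCC6 PBS replicate 1, SCC6 cetuximab replicate 1 or SCC6 cetuximab replicate 2 was left out (edgeR adjusted p = 0.160, 0.187 and 0.0872 for IL1RN, 0.246, 0.294 and 0.1005 for IL1B). IL1B alone also lost it without any 1 of the 4 SCC1 samples (0.0528 to 0.0624), which enter only through the shared estimate of the spread.

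IL1A went from 14.1 and 4.56 CPM with PBS to 1.13 and 2.16 CPM with cetuximab in SCC6. The groups did not overlap, though PBS replicate 2 was closer to the treated samples than to replicate 1. Its log2 fold change of -2.75 ± 0.85 had an edgeR adjusted p of 0.104, which was 0.0206 with the replicate block and ranged from 0.00143 to 0.487 over the alternatives.

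IL18 was at 43.3 and 42.4 CPM with PBS and at 20.3 and 27.6 CPM with cetuximab in SCC6, the tightest of the PBS groups. The log2 fold change was -1.07 ± 0.26 with an edgeR adjusted p of 0.0526, and with the replicate block it passed at 0.00855 (alternatives from 0.00459 to 0.351). With that block, 4 cytokines were called lower in SCC6 (IL1A, IL1B, IL1RN and IL18), where 10.1% of all genes were called lower and 20.1% in either direction. DESeq2 called 4 as well, with 9.34% of all genes.

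The gp130 cytokines of SCC6 overlapped between treatments. LIF stood at 37.2 and 19.7 CPM with PBS and at 15.1 and 20.5 with cetuximab (edgeR adjusted p = 0.234). IL11 stood at 16.8 and 5.32 CPM with PBS and at 3.35 and 7.61 with cetuximab (edgeR adjusted p = 0.329). For both, replicate 1 was lower with cetuximab and replicate 2 was slightly higher. IL6 was at 0.171 to 0.438 CPM in the 4 samples, with overlap. IL36G had 8 and 1 UMIs with PBS and 2 and 4 with cetuximab, and IL33 had 1 and 3 against 3 and 3, too few for a fold change.

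Marker lists moved with treatment in SCC6 as well. The summed level of the 8 squamous markers was 816 to 1063 CPM with PBS and 2606 to 3086 CPM with cetuximab, that of the 8 leukocyte markers 13.4 to 27.8 against 5.20 to 6.09 CPM, and that of 6 fibroblast markers 0.947 to 2.79 against 21.1 to 25.2 CPM. PTPRC, CD3E and TYROBP were at or near 0 in both groups. Median depth also differed, with 32438 and 38691.5 UMIs per cell in the PBS samples and 24078.5 and 50156 in the cetuximab samples. The part of these differences in the lower cytokine levels was not tested.

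**Figure D2:**
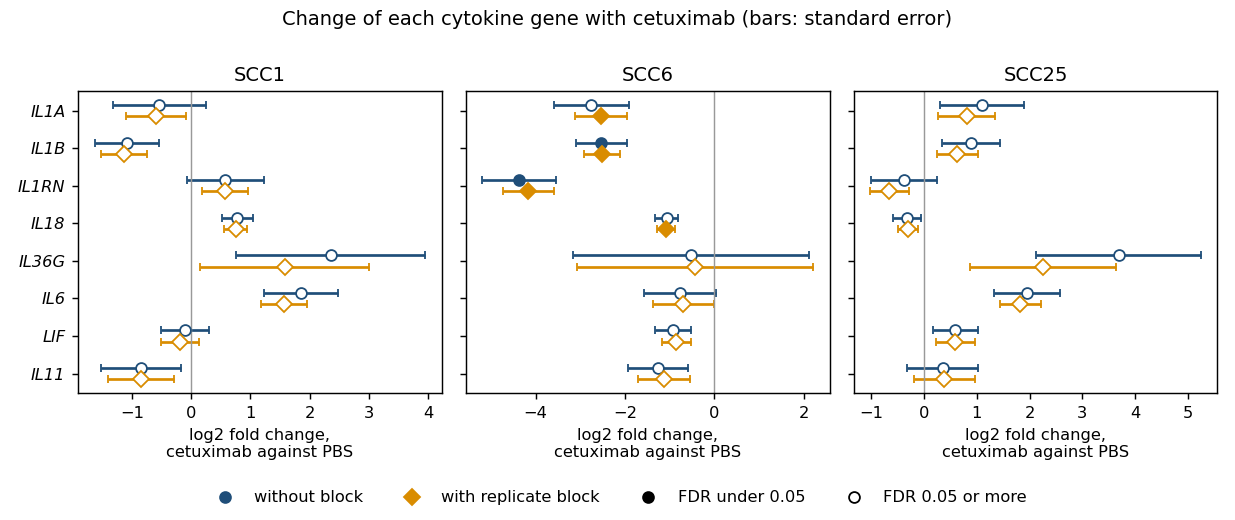
Log2 fold change of cetuximab against PBS (horizontal axes, bars for the standard error) for the 8 tested cytokines in each line, from edgeR without a block (circles) and with the replicate number as a block (diamonds), filled where the adjusted p was under 0.05. Filled symbols appear in SCC6 only, for IL1B and IL1RN without the block and for IL1A, IL1B, IL1RN and IL18 with it.

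In SCC1, none of the 8 cytokines passed the test in edgeR, where 0.0168% of all genes were called, in edgeR with the replicate block (4.45%) or in DESeq2 (1.53%). At an unadjusted p under 0.05, 2 of the 8 were found by either tool, IL18 and IL6, where 8.77% of all genes were in edgeR and 9.58% in DESeq2. The level of IL18 was 203 and 185 CPM with PBS and 418 and 275 CPM with cetuximab. Both treated samples were the higher ones, and the fold of 1.72 (log2 fold change 0.78 ± 0.26) had an edgeR adjusted p of 0.391. The level of IL6 was 25.9 and 15.05 CPM with PBS and 124 and 29.6 CPM with cetuximab, again without overlap, and cetuximab replicate 1 stood far above the rest. Its log2 fold change of 1.86 ± 0.62 had an edgeR adjusted p of 0.401.

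IL1B of SCC1 was at 185 and 197 CPM with PBS and at 120 and 67.8 CPM with cetuximab (log2 fold change -1.08 ± 0.55, edgeR adjusted p = 0.644). The PBS samples were close together and both treated samples lower. IL1A was at 20.3 and 19.5 CPM against 18.5 and 10.0 (edgeR adjusted p = 0.971), and IL11 at 5.47 and 3.60 against 3.05 and 2.14 (edgeR adjusted p = 0.845), each also without overlap. IL1RN was at 2.21 and 2.30 CPM with PBS and at 3.58 and 3.39 with cetuximab, higher in both pairs but with an edgeR adjusted p of 0.928. LIF overlapped, with 9.44 and 6.47 CPM against 10.6 and 4.75. In all, 3 of the 8 genes had both cetuximab samples below both PBS samples (17.3% of all genes did) and 3 had both above (24.7%).

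Marker sums differed with treatment in SCC1 too, at 6626 to 6644 CPM with PBS and 10819 to 11799 CPM with cetuximab for the squamous list and at 7.51 to 8.61 against 17.6 to 18.5 CPM for the fibroblast list. The leukocyte list overlapped, at 23.7 to 24.1 against 17.2 to 31.9 CPM. Their part in the IL18 and IL6 values was not tested.

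SCC25 likewise had no call among the 8 genes in edgeR (0% of all genes were called, and 0.978% with the replicate block) or in DESeq2 (0.564%), and 2 of the 8, IL36G and IL6, at an unadjusted p under 0.05 in both (5.82% and 6.14% of all genes). IL6 was at 7.71 and 6.59 CPM with PBS and at 39.9 and 16.7 CPM with cetuximab. The PBS samples were nearly alike, and both treated samples stood above them. The log2 fold change was 1.95 ± 0.63, a 3.87-fold difference, with an edgeR adjusted p of 0.640. LIF, though low, was also higher in both treated samples, at 1.67 and 1.58 CPM against 0.988 and 1.11 (edgeR adjusted p = 0.978). These 2 genes were the ones with both treated samples above both PBS samples, which 16.3% of all genes showed, and none of the 8 had both below (12.9%).

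Other members of SCC25 were decided by cetuximab replicate 1. IL36G had 0.680 and 0.312 CPM with PBS, 12.7 CPM (1120 UMIs) in cetuximab replicate 1 and 0.182 CPM (19 UMIs) in cetuximab replicate 2. The fitted log2 fold change of 3.69 ± 1.56 (edgeR adjusted p = 0.814) became -1.42 without that sample. IL1B had 26.7 and 15.4 CPM with PBS, 63.2 in cetuximab replicate 1 and 16.2 in replicate 2, and its log2 fold change went from 0.89 ± 0.55 to -0.37 without replicate 1. IL1A behaved likewise, with 5.35 and 1.83 CPM against 13.2 and 2.25 (1.10 ± 0.80, and -0.65 without replicate 1). In SCC1, too, IL36G was high in cetuximab replicate 1 only, at 2.51 CPM, beside 0.127 in replicate 2 and 0.160 and 0.305 with PBS.

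The antagonist and IL18 did not follow in SCC25. IL1RN was at 21.9 and 13.4 CPM with PBS and at 22.1 and 5.49 with cetuximab (edgeR adjusted p = 1), the same level in replicate 1 and a lower one in replicate 2. IL18 was at 70.6 and 95.1 CPM against 63.8 and 72.3, and IL11 at 2.42 and 0.802 against 2.93 and 1.19 (both edgeR adjusted p = 1). For IL18 and IL11 the groups overlapped. Among the marker sums of SCC25, the fibroblast list was at 17.6 to 36.1 CPM with PBS and 37.4 to 73.0 CPM with cetuximab, while the squamous list (6371 to 10403 against 8191 to 13011) and the leukocyte list (167 to 194 against 120 to 173) overlapped, and their part in the cytokine values was not tested.

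Across the 3 lines, no cytokine passed the treatment term of edgeR, which called 3.67% of all genes and 11.6% with the replicate block, nor that of DESeq2 (9.9%). At an unadjusted p under 0.05 there were 2 of 8 in each tool, IL36G and IL6 in edgeR and IL1B and IL6 in DESeq2, where 21% and 22.7% of all genes were, a share close to theirs. In 5 of the 6 pairs of samples that share a replicate number, IL6 had the higher value with cetuximab. The ratio was 4.77 and 1.96 in SCC1 and 5.17 and 2.54 in SCC25. Both SCC6 pairs lay under 0.5 CPM, near the floor. There IL6 went from 44 to 13 UMIs in replicate 1 and from 19 to 23 in replicate 2. How many of all genes were higher in as many pairs was not counted. The common log2 fold change of IL6 was 1.31 ± 0.49 (edgeR adjusted p = 0.152). When genes with low counts were kept in the fit, IL6 passed in SCC1 (0.0235), in SCC25 (0.0287) and across the lines (0.0440), against ranges over the alternatives of up to 1, 1 and 0.414. IL1B was lower in 4 of 6 pairs and higher in both SCC25 pairs, as was IL1A. The edgeR adjusted p across lines was 0.192 for IL36G, 0.358 for IL1B, 0.446 for IL11, 0.470 for IL1RN, 0.618 for IL1A, 0.716 for IL18 and 0.785 for LIF.

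An interaction term asked whether the effect of cetuximab itself differed among the 3 lines. Without the block, edgeR called none of the 8 cytokines and 0% of all genes, with 5 of the 8 (IL18, IL1A, IL1B, IL1RN and IL6) and 7.36% of all genes at an unadjusted p under 0.05. With the replicate block, IL1RN (edgeR adjusted p = 0.0393) and IL18 (0.0396) passed, where 1.29% of all genes did. DESeq2 called 3, adding IL1B, and 1.54% of all genes. IL18 was higher in both SCC1 pairs and lower in both SCC6 and both SCC25 pairs, and IL1RN was higher in both SCC1 pairs and lower in both SCC6 pairs.

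The number of antagonist molecules for each 100 agonist molecules moved with treatment in all 3 lines, and not the same way. In SCC1 it went from 1.07 and 1.06 with PBS to 2.58 and 4.35 with cetuximab. In SCC6 it went from 3.92 and 1.86 to 0.9501 and 0.846, and in SCC25 from 68.4 and 77.7 to 28.9 and 29.8. No treated sample overlapped with the PBS samples of its line, and both SCC25 treated samples stayed above every sample of the other lines. For the levels of single genes such separation was common. In SCC1 24.7% of all genes had both cetuximab samples above both PBS samples, and 11.6% in SCC6 and 12.9% in SCC25 had both below. The treated SCC6 ratios rested on only 8 and 13 IL1RN UMIs. In SCC25 the ratio was lower where IL1A and IL1B were higher (replicate 1) and where IL1RN was lower (replicate 2). No test was made of this ratio.

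How many cells carried each cytokine was counted after every cell had been thinned to 15000 UMIs, because depth differed between samples. IL18 was carried by most cells in every SCC1 and SCC25 sample, and IL1B by more than 50% of the cells in every SCC1 sample (plot of shares of cells). As a measure of background, PTPRC, CD3E, ALB and HBB, which squamous cells should lack, were found in at most 0.183% of cells of any sample after thinning and 0.345% before.

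IL1B molecules were found in 76.3% and 77.3% of SCC1 PBS cells and in 53.7% and 51.6% of SCC1 cetuximab cells. The corresponding shares were 49.2% and 38.5% against 12.5% and 15.9% in SCC6, and 23.4% and 13.9% against 45.0% and 15.96% in SCC25. The treated SCC1 samples, at 120 and 67.8 CPM, thus had nearly the same share of positive cells. IL18 was found in 86.0% and 84.9% of SCC1 PBS cells and in 93.1% and 89.9% of SCC1 cetuximab cells. Its shares were 44.7% and 41.3% against 21.6% and 26.97% in SCC6, and 58.3% and 69.8% against 52.3% and 57.2% in SCC25.

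IL6 was found in 22.5% and 15.2% of SCC1 PBS cells and in 51.6% and 24.6% with cetuximab. In SCC25 the share was 8.46% and 7.91% with PBS and 32.8% and 15.9% with cetuximab, so that more cells carried the transcript in each treated sample than in any PBS sample of the line. SCC6 had 0.193% to 0.566% of cells with an IL6 molecule, beside up to 0.183% for the background genes. IL1RN was carried by 24.4% and 15.5% of SCC25 PBS cells and by 23.0% and 6.12% with cetuximab. In SCC6 it went from 4.60% and 1.48% to 0.116% and 0.0610%. These shares lie below the highest background share of any sample, 0.183% for HBB in SCC25 PBS replicate 1. In SCC6 cetuximab replicate 1 itself, 3 cells carried IL1RN and no cell carried a background gene after thinning.

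LIF was found in 35.6% and 23.7% of SCC6 PBS cells and in 18.2% and 24.5% with cetuximab, and in 1.48% to 2.40% of SCC25 cells. IL33 was found in no more than 0.0914% of the cells of any sample but SCC25 cetuximab replicate 2, where 8 of 1993 cells (0.401%) had a molecule. The 4 SCC1 samples had none after thinning, which allows a share of cells with a molecule at this depth of up to 0.183% to 0.320% by sample and sets no limit on cells that express the gene. The plot shows the 95% Clopper-Pearson interval of each share, which accounts for counting error alone.

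**Figure D3:**
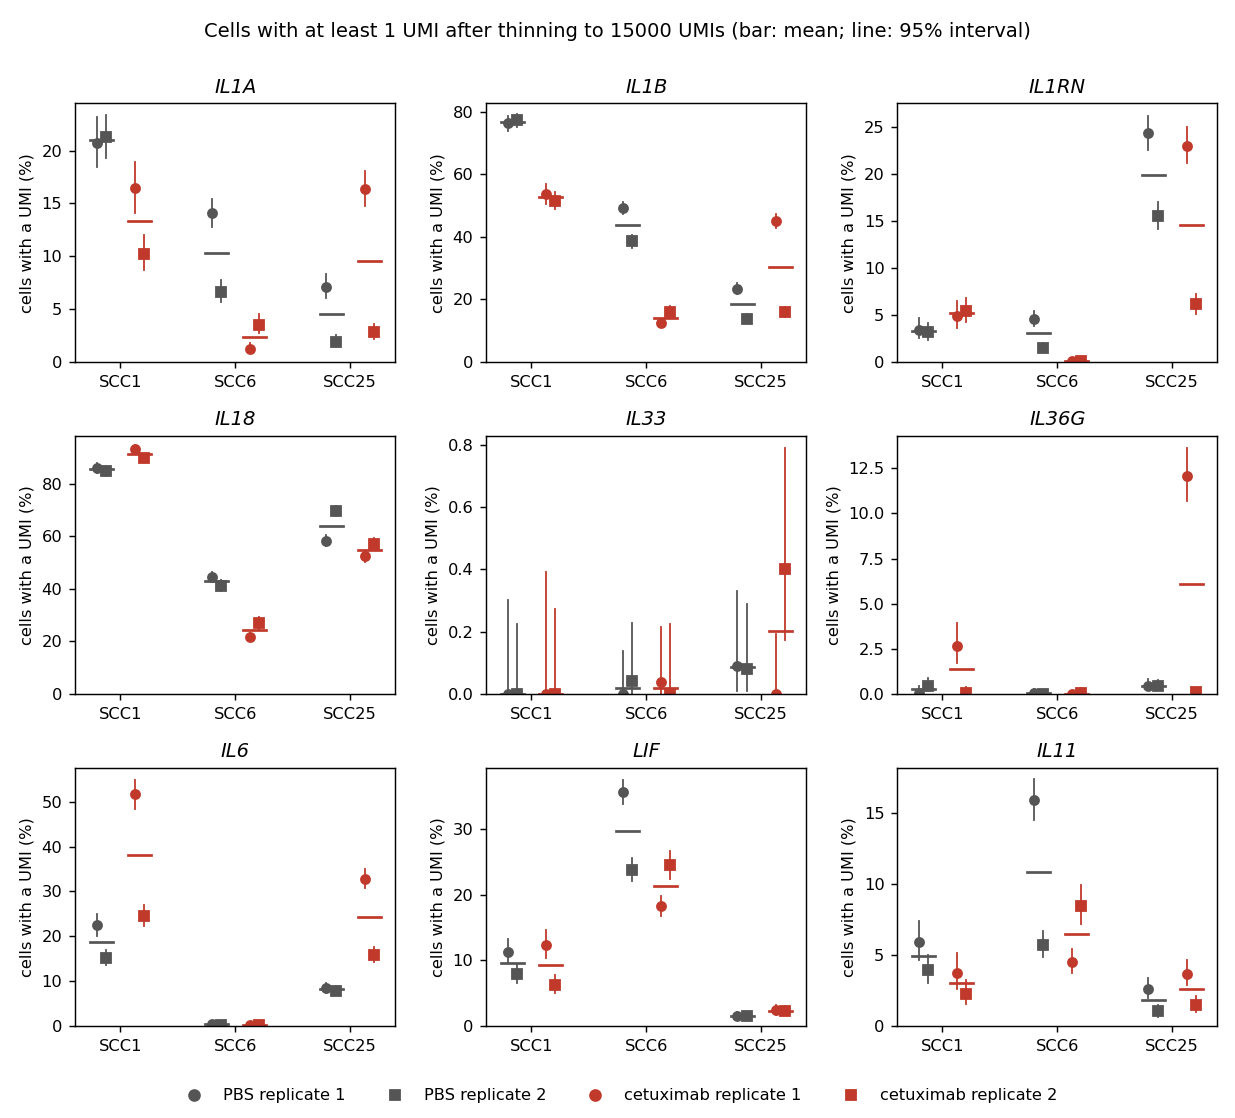
Share of cells with at least 1 UMI of each cytokine in percent (vertical axes, linear from 0) after thinning to 15000 UMIs, in the 12 samples, with bars for the mean of 2 samples and vertical lines for the exact 95% interval of each sample. In SCC6 the shares of IL1B fall from 49.2% and 38.5% to 12.5% and 15.9%, and IL6 is carried by more cells in every treated SCC1 and SCC25 sample than in the PBS samples.

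Some cytokines sat in few cells. In SCC25 cetuximab replicate 1, the 373 IL36G molecules left after thinning lay in 232 of 1920 cells, and 54 cells held at least the first 50% of them, with up to 20 in 1 cell. In SCC1 cetuximab replicate 1, 1591 IL6 molecules lay in 484 of 938 cells, and the 94 cells with most of them held 51.5%. The single richest cell had 55. IL18 was spread more evenly there, as the 94 cells richest in it held 27.8% of its 5192 molecules.

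Within samples, IL1A and IL1B tended to share cells. Cells with both were more frequent than the product of the separate shares in 11 of 11 samples with enough cells to count, by 1.12 to 2.70 times with a median of 1.45. In SCC1 cetuximab replicate 1, for instance, 120 cells carried both where 82.7 would follow from the product. The medians of IL1A with LIF (1.42) and with IL11 (1.38) came near that, above 1 in 8 of 9 and 5 of 6 samples. IL1B and LIF shared cells in excess in 11 of 12 samples, by a median of 1.11 times. For IL1RN and IL6 the median was 0.910, with 2 of 8 samples above 1. For IL18 and IL6 the median was 1.01 over 9 samples, close to independence. Cells of a sample share a library, and these ratios are a description.

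Each cytokine was also compared between the cells above the 90th percentile for a list of genes and the remaining cells of the same sample. For 18 interferon-induced genes, IL1RN was higher in the highest cells in 10 of 10 samples with enough molecules, by a median of 1.64 times. Among these were both SCC6 PBS samples. There the cut for high cells was 3 and 4 UMIs of the list, and IL1RN had 134 and 37 molecules in all cells. IL6 was higher in 7 of 8 samples by a median of 1.71 times, with no SCC6 sample among the 8. IL1B was higher in 4 of 12 samples only (median 0.892). For 15 genes of squamous differentiation, IL1A was lower in the highest cells in all but 1 of 12 samples (median 0.444), IL1B in all but 1 of 12 (0.727), while IL1RN was higher in 8 of 10 (1.28). The medians of IL11 (0.385), IL6 (0.747) and LIF (0.809) were below 1 too, and that of IL18 was 0.982. In SCC25, the line with most IL1RN, the ratio of IL1RN was above 1 in 2 of 4 samples (1.29, 0.965, 1.27 and 0.666), and in the SCC1 and SCC6 samples it rested on 3 to 20 molecules in the high cells. For 10 cell cycle genes, IL6 was lower in cycling cells in 7 of 8 samples (median 0.615) and IL1A in 9 of 12 (0.683). This was not particular to them, as the medians of IL11 (0.633), IL1RN (0.789), LIF (0.827) and IL1B (0.862) were also below 1. The median of IL18 was 1.10.

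**Figure D4:**
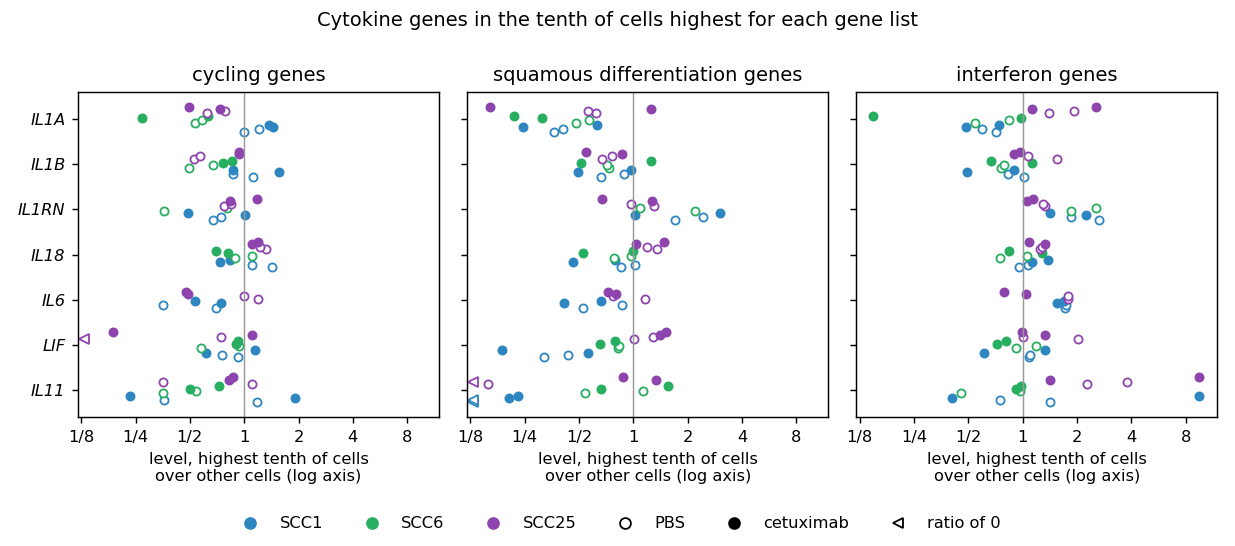
Ratio of the level in the cells above the 90th percentile for each gene list to the level in the other cells of the same sample (horizontal axes, log scale, line at 1), 1 point for each sample, coloured by line, open for PBS and filled for cetuximab. IL1RN lies right of 1 for the interferon genes in 10 of 10 samples, and IL1A and IL1B lie left of 1 for the squamous differentiation genes in all but 1 of 12. The medians of IL11, IL6 and LIF for the squamous differentiation genes also lie left of 1.

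Between samples of SCC1 and of SCC25, the level of IL6 went with the interferon list. The summed level of the list was 10671 and 6441 CPM in SCC1 PBS, 22801 and 15173 CPM in SCC1 cetuximab, 3225 and 3241 in SCC25 PBS, 14531 and 5607 in SCC25 cetuximab, and 105 to 249 CPM in the 4 SCC6 samples. The samples with most IL6 in each of SCC1 and SCC25, cetuximab replicate 1, were also those with the highest sum. In SCC6 both were low in every sample. IL6 had 44 and 19 UMIs with PBS and 13 and 23 with cetuximab there, too few to show whether it follows the list. The list was at 105 and 135 CPM with PBS and at 187 and 249 CPM with cetuximab. IL6 was at 0.438 and 0.185 CPM against 0.171 and 0.256 CPM in the same SCC6 samples. IL1RN did not go with the list in every line. With cetuximab, IL1RN was higher in both SCC1 samples and lower in both SCC6 samples. In SCC25 it was at 21.9 and 13.4 CPM with PBS and at 22.1 and 5.49 CPM with cetuximab. The part of the interferon genes in the IL6 difference was not tested.

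**Figure D5:**
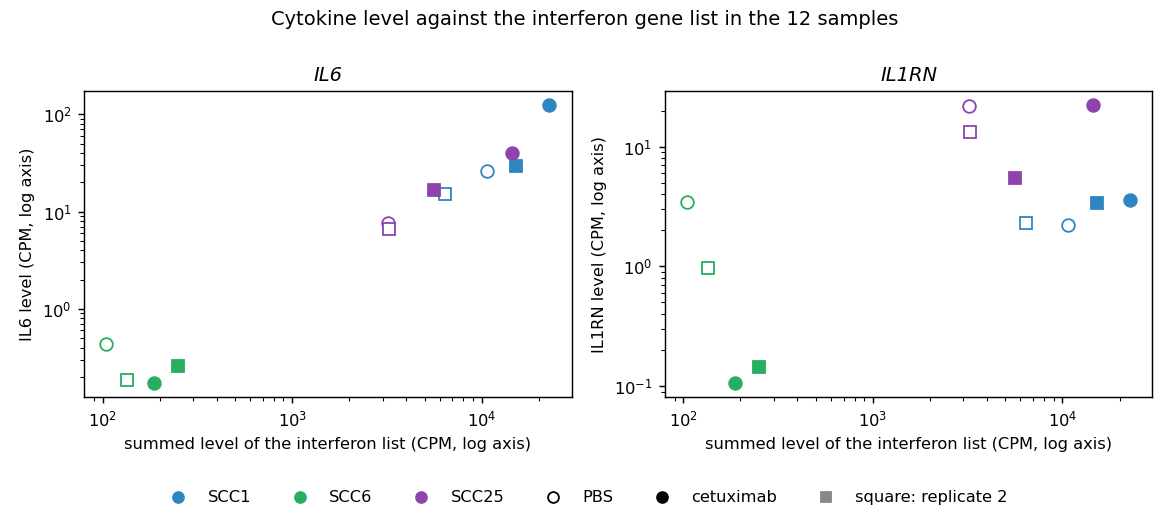
Level of IL6 and of IL1RN in CPM (vertical axes, log scale) against the summed level of the interferon gene list in CPM (horizontal axes, log scale) in the 12 samples, coloured by line, open for PBS and filled for cetuximab, squares for replicate 2. The 4 SCC6 samples sit at 105 to 249 CPM of the list and under 0.5 CPM of IL6, and SCC1 cetuximab replicate 1 has the highest value of both.

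Genes whose line-centred log2 levels were nearest to each member over the 12 samples were looked up among 9640 genes of at least 5 CPM. The measure was the root mean square difference, on the log2 scale with 1 CPM added. IL1B was the nearest to IL1A (0.276), followed by the EGFR ligand gene TGFA (0.326) and FST (0.336), and for IL1B the nearest were IL1A, the chemokine gene CXCL2 (0.354) and TGFA (0.417). IL6 was nearest to the interferon-induced genes TRIM22 (0.312), CMPK2 (0.319) and OAS2 (0.330). LIF was nearest to OSMR (0.157), a receptor gene of its own family, NFKBIZ (0.187) and CCDC9 (0.199). For IL18 they were FAM3C, SRPX2 and C1orf116 (0.154 to 0.166), and for IL1RN they were OAF, MAL2 and FAM241A (0.339 to 0.355). The members themselves varied unequally, so these distances do not rank 1 member against another. The root mean square of the member's own centred levels was 0.366 for LIF, 0.386 for IL18 and 0.651 for IL1RN. It was 0.843 for IL1A, 0.846 for IL6 and 0.873 for IL1B.

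The receptors and the pathway around these cytokines were counted from 6 lists. Of 16 receptor genes, 14 were tested and edgeR called 1 in SCC6 (3.81% of all genes) and across the lines (3.67%). It was IL6R, the ligand-binding IL-6 receptor, which is named, after its values were seen, because it was the only one. IL6R was at 0.568 and 0.554 CPM with PBS and at 0.145 and 0.133 CPM with cetuximab in SCC6. It was at 5.74 and 5.37 CPM against 2.14 and 2.47 in SCC25, and at 1.20 and 1.52 against 0.754 and 1.07 in SCC1. Both treated samples were below both PBS samples in each line. The log2 fold change was -2.23 ± 0.34 in SCC6 (edgeR adjusted p = 0.00957) and -1.31 ± 0.24 across the lines (0.0167). With the replicate block it also passed in SCC25 (-1.30 ± 0.20, 0.0306), where 0.978% of all genes were called. In SCC25, where IL6 itself was higher with cetuximab, the receptor gene was thus lower.

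With the replicate block, 5 of the 14 receptor genes were called in SCC6 (20.1% of all genes), 4 of them lower (10.1% of all genes), among them SIGIRR, a negative regulator of IL-1 receptors (log2 fold change -0.90 ± 0.16, edgeR adjusted p = 0.00786), and OSMR (-0.87 ± 0.26, 0.0479). IL1RAP, the shared signalling partner of the IL-1 receptors, passed with the block in SCC25 (0.77 ± 0.13, edgeR adjusted p = 0.0414) and across the lines (0.44 ± 0.11, 0.0383). With the block, 0.978% of all genes were called in SCC25 and 11.6% across the lines. IL1RAP was at 20.4 and 15.7 CPM with PBS and at 34.5 and 28.1 CPM with cetuximab in SCC25. Of 12 other ligands of both families, 6 were tested and none was called for cetuximab within a line by either fit. The fit across the lines with the block called 1 (11.6% of all genes), EBI3 (1.35 ± 0.30, 0.0263), named after its values were seen.

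Of 15 genes for IL-1 processing, 14 were tested and edgeR called 1 in SCC6 (3.81% of all genes), NLRP1, the inflammasome sensor of keratinocytes. NLRP1 rose by a log2 fold change of 1.48 ± 0.35 (edgeR adjusted p = 0.0484) from 0.269 and 0.165 CPM to 0.803 and 0.633 CPM. With the block, CASP4, an inflammatory caspase, was also called lower in SCC6 (-0.75 ± 0.17, edgeR adjusted p = 0.0179), and GSDME, a gasdermin, higher in SCC1 (0.56 ± 0.13, 0.0472) and across the lines (0.39 ± 0.08, 0.0219). Of the 18 genes that carry IL-1 and gp130 signals, edgeR called none in any line. With the block MYD88 passed in SCC1 (1.06 ± 0.20, edgeR adjusted p = 0.0287), where 4.45% of all genes did.

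NF-kB targets, 18 of 18 tested, had a median log2 fold change of 0.50 for SCC1, -0.93 for SCC6 and 0.99 for SCC25, while the median over all genes lay between -0.01 and 0.00. The difference between these medians was not tested. None was called without the block. With it, 4 of 18 were called in SCC6, where 20.1% of all genes were, namely BIRC3 (-3.03 ± 0.71, edgeR adjusted p = 0.0216), IRF1 (-1.13 ± 0.17, 0.00433), BCL3 (-0.97 ± 0.23, 0.0227) and NFKBIB (-0.79 ± 0.18, 0.0183), all of them lower (10.1% of all genes). BIRC3, an inhibitor of apoptosis, had 492 and 88.0 CPM in the SCC6 PBS samples and 34.5 and 26.0 CPM in the cetuximab samples, so that 1 PBS sample stood far above the rest.

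Of 15 STAT3 targets, 11 were tested and 2 were called lower in SCC6 (1.3% of all genes), both C/EBP transcription factors. CEBPD fell from 212 and 94.4 CPM to 65.1 and 54.9 CPM (log2 fold change -1.60 ± 0.35, edgeR adjusted p = 0.0365) and CEBPB from 442 and 339 CPM to 235 and 253 CPM (-0.92 ± 0.21, adjusted p = 0.0414). The other 9 tested targets were not called in that fit, TIMP1 among them (-0.70 ± 0.20, edgeR adjusted p = 0.0824). With the block, 4 of the 11 were called in SCC6 (20.1% of all genes), as TIMP1 was also called lower (-0.71 ± 0.12, edgeR adjusted p = 0.00698) and SOCS3, a feedback inhibitor of gp130, higher (0.49 ± 0.14, 0.0438). SOCS1 was called higher with the block in SCC1 (1.06 ± 0.22, 0.0382, 4.45% of all genes called) and across the lines (0.65 ± 0.16, 0.0383, 11.6%).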

How the data were processed

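Cells from SCC1, SCC6 and SCC25 were profiled with droplet-based 3′ chemistry, which counts 1 tag per molecule. The deposited tables, 1 per line, held raw counts of UMIs for 33538 rows and each cell, and a second deposited table named the library of each cell. The authors used CellRanger for read filtering and alignment and Monocle 3 for the choice of cells, per their methods, and the counts are whole numbers without normalisation. The submitters' processing notes name Cell Ranger and GRCh38, and the annotation is not given in the sources used here. The 24 rows that repeated a symbol were added to the first. All 23914 cells were used, with no doublet caller. Samples of a group had 3 to 10 cell barcodes in common, and those of different groups 1 to 13.

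Counts were summed per sample and tested over 17897 genes by quasi-likelihood in edgeR 4.0.16 (R 4.3.3, TMM, filterByExpr), in 1 fit with 6 group means and 6 residual degrees of freedom. The effect across lines came from a fit of line plus treatment, and the interaction from adding their product. P-values were two-sided, adjusted by Benjamini-Hochberg over all genes, and called under 0.05. Alternatives were DESeq2 1.42.0, its size factors, no filter on low counts, leaving out the 5% of cells with most UMIs or cells above 20% mitochondrial UMIs, the samples of a line alone, leaving out each sample, and a replicate block. Deviations of equally numbered samples from their group means correlated at 0.377 in SCC1, 0.349 in SCC6 and 0.598 in SCC25, each above 0.1. The numbers, which come from the labels, were therefore taken to pair the samples in the replicate block. The main fit did not use this pairing. With the block, 3 residual degrees of freedom were left for the effects within lines and the interaction. The script was tested on simulated data.

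For shares of cells, 851 cells under 15000 UMIs were left out and 23063 thinned. Cells above the 90th percentile of a list were set against the rest. These ratios needed at least 20 molecules, and pairs of genes at least 5 cells by the product of shares. The members and lists were chosen with earlier results of these data known. The rule named all 9 members, of which IL33 was not tested and 6 reached the level set for likeness. Of the pathway lists, up to 4 called genes of at least 5 CPM are named, and for likeness 3 genes per member of at least 5 CPM. Other columns of the cell tables were not used. Sequences and loci are from RefSeq on GRCh38.p14.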

Additional observations from a re-analysis of the deposited data

Results flagged for a closer look

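The difference of the cetuximab effect between the lines passed the interaction test of edgeR with the replicate block for 2 of the 9 genes. IL1RN had an adjusted p of 0.0393, with cetuximab values 1.62 and 1.48 times PBS in SCC1, 0.0305 and 0.149 times in SCC6 and 1.01 and 0.411 times in SCC25. IL18 had an adjusted p of 0.0396, with 2.05 and 1.48 times in SCC1, 0.470 and 0.652 times in SCC6 and 0.904 and 0.761 times in SCC25. Without the block the adjusted p was 0.353 for both.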

How the results depend on the processing

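The count of cytokines called in SCC6 was 2, and it was 4 with DESeq2, 4 without the filter on low counts, 4 with the replicate block and 0 to 3 when 1 sample was left out (0 without SCC6 PBS replicate 1 or either SCC6 cetuximab replicate, 1 without any 1 of the SCC1 samples, and 3 without any 1 of the SCC25 samples). Without the filter it was 1 in SCC1, 1 in SCC25 and 1 across the lines, each IL6, in place of 0. For the interaction it was 3 with DESeq2, 4 without the filter and 2 with the replicate block, in place of 0. Between untreated SCC6 and SCC1 it was 5 with DESeq2, 5 without the filter and 5 with the replicate block shared by the lines, in place of 3, and between SCC25 and SCC6 it went from 6 to 3 without SCC6 PBS replicate 1 or SCC25 PBS replicate 2 (3 to 6 over all samples left out). The replicate block changed no other call of a cytokine than those given here and beside the results. Over all genes in SCC6, 682 were called, 1671 with DESeq2, 1233 without the filter, 3589 with the block and 265 with the SCC6 samples alone. In SCC1, 3 were called, 274 with DESeq2, 243 without the filter and 797 with the block, and in SCC25 0, 101, 128 and 175. Across the lines these counts were 656, 1771, 1043 and 2073, and for the interaction 0, 276, 248 and 230. Leaving out 1 sample gave 11 to 749 genes in SCC6. The cause was not tested.

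Single samples turned the direction of log2 fold changes that had not passed the test. Over the samples left out, they ranged from -0.95 to 3.30 for IL36G and from -0.77 to 0.35 for LIF in SCC1, from -1.39 to 1.58 for IL36G and from -1.30 to 0.034 for IL6 in SCC6, and in SCC25 from -0.65 to 1.98 for IL1A, from -0.37 to 1.56 for IL1B, from -1.68 to 0.30 for IL1RN, from -1.42 to 4.67 for IL36G and from -0.41 to 1.26 for IL11. LIF across the lines ranged from -0.35 to 0.072, and IL1RN between untreated SCC6 and SCC1 from -0.93 to 0.99. Between untreated lines, the calls of IL1A and IL18 (SCC25 and SCC1, adjusted p up to 0.205 and 0.0786) and of IL11, IL18 and IL1B (SCC25 and SCC6, up to 0.0730, 0.204 and 0.170) ended without 1 or more of the samples. Of 1031 recomputed log2 fold changes, 961 kept direction and side of the threshold, 27 lost and 30 gained a call, and 13 changed direction. Shares of cells were higher without thinning in 53 of 54 group means. Depth limits IL33 and, in SCC6, IL36G, IL6 and treated IL1RN (8 and 13 UMIs), where counting error is not small beside the spread between samples.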
